A study of Mus musculus with 4 samples.

Results

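The genes described here are 8 mouse checkpoint and HVEM-axis genes, Lag3, Havcr2, Pdcd1, Ctla4, Cd200r1, Cd160, Btla and Tnfrsf14, chosen by name and found by their NCBI Gene numbers among 17723 gene numbers with a value in any library. All 8 had a value in at least 1 library. They were measured by RNA-seq of natural killer (NK) cells, innate lymphocytes that kill tumour cells, sorted from spleen by DNAM-1, an activating receptor encoded by Cd226. The 4 groups were DNAM-1+ and DNAM-1- NK cells, each sorted on day 0 (titled normal spleen) and on day 17 after transfer of GFP+ MLL-AF9 acute myeloid leukaemia (AML) cells, with 1 library each. All recipients were C57BL/6J mice aged 6 to 8 weeks that had not been irradiated. Neither further sorting gates nor purity, nor how many mice went into a library, are given in the labels, so any contrast of 2 libraries stands without replication. Levels are the deposited FPKM (fragments scaled to transcript length and library size), which can be compared between genes because they are per length.

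HVEM, the product of Tnfrsf14, is a TNF receptor family protein that is also a ligand: it binds CD160 and BTLA, both of the immunoglobulin superfamily, and the TNF family cytokines LIGHT (Tnfsf14) and lymphotoxin alpha (Lta). BTLA carries inhibitory tyrosine motifs that recruit the phosphatases SHP-1 and SHP-2, whereas CD160 is a glycolipid-anchored receptor long known from NK cells and cytotoxic T cells. The other members are inhibitory receptors of activated lymphocytes and myeloid cells. PD-1 (Pdcd1) binds PD-L1, CTLA-4 (Ctla4) binds CD80 and CD86, LAG-3 (Lag3) binds MHC class II, TIM-3 (Havcr2) has galectin-9 and CEACAM1 among its reported ligands, and CD200R (Cd200r1) binds CD200.

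The libraries matched their sort. Cd226 was at 38.6 and 36.1 FPKM in the DNAM-1+ libraries of normal and AML spleen and at 0.45 and 0.58 in the DNAM-1- libraries. The NK receptor genes Ncr1 (383 to 597 FPKM) and Klrb1c (318 to 422) were abundant in all 4. Other cells were present in every library: none of the 12 B cell markers was at 0, and their summed level was 248 and 279 FPKM in the DNAM-1+ libraries against 1211 and 1173 in the DNAM-1- libraries. The 12 monocyte and macrophage markers summed to 363 and 428 against 821 and 839, and the 12 T cell markers to 88.1 and 82.9 against 36.9 and 31.9. Most of the monocyte sum in DNAM-1+ libraries came from Ly6c2 and Ccr2. Of the 11 tested, 9 were called lower in DNAM-1+ cells and Ly6c2 was not called. Ccr2 went the other way and was called higher (limma difference 0.34, adjusted p = 0.0141). Ly6c2 was at 137 and 188 against 159 and 192 FPKM, and Ccr2 at 122 and 113 against 98.35 and 86.6. In bulk RNA, more cells of a type and more RNA per cell cannot be told apart. Over all genes tested, 7.35% rose and 8.38% fell, the shares to set beside the counts of every list here and below. The lists were chosen with earlier results of these data known, so their counts are descriptions. Of the other lists, 4 of 12 NK markers rose and none fell, and 1 of 2 tested regulatory T cell markers rose. The 4 tested markers of type 1 innate lymphoid cells, Cd200r1 among them, were higher in DNAM-1+ cells, but all 4 reached the 5 FPKM needed for the test there alone, so the count supports nothing. Of the tested markers, 1 of 2 for dendritic cells, 5 of 5 for neutrophils and 3 of 4 for plasma cells were called lower, 1 of them for dendritic cells and 1 for neutrophils having reached the floor in DNAM-1- libraries alone. The depth, estimated from the smallest values of microRNA genes, was 8900000 to 9400000 fragments per library.

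The libraries of the subsets differed in which receptor genes for HVEM they held. DNAM-1+ libraries had more Cd160 RNA and far less Btla RNA than DNAM-1- libraries in both spleens, with B cell markers differing as Btla did, while Tnfrsf14 itself was at a similar level in all 4 libraries. Cd160 was the highest of the 8 genes in both DNAM-1+ libraries, and Btla the highest in both DNAM-1- libraries. Cd200r1 and Lag3 were also higher in DNAM-1+ cells, Havcr2 was lower, and Ctla4 and Pdcd1 were at or near the limit of a few reads. The plot of levels by library shows this order.

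**Figure D1:**
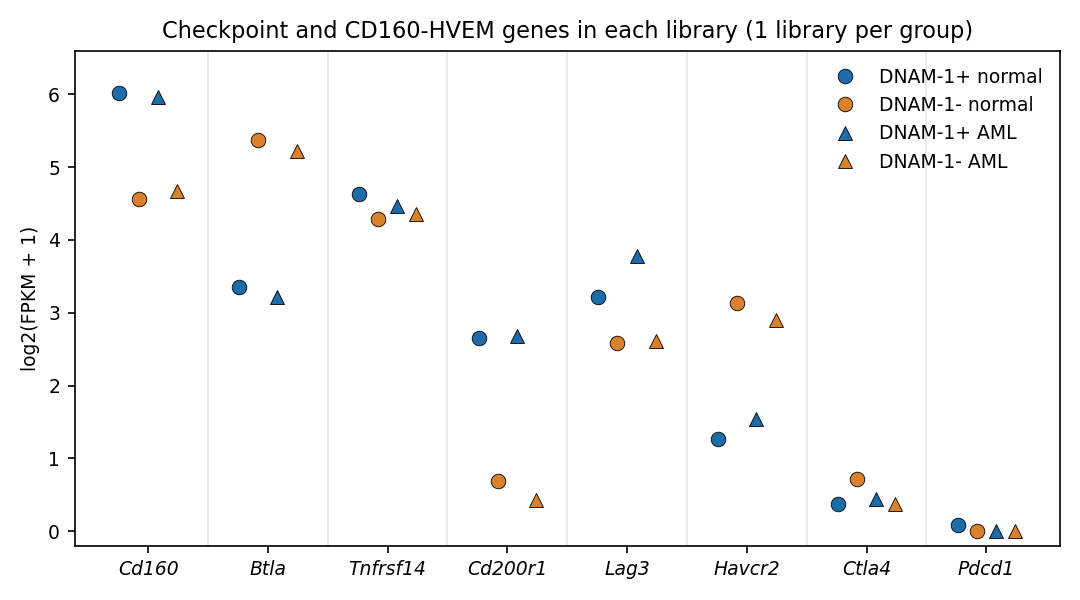
Levels of the 8 genes as log2(FPKM + 1), with 1 point per library: blue for DNAM-1+, orange for DNAM-1-, circles for normal spleen and triangles for AML spleen. In each spleen the blue point lies above the orange point for Cd160, Tnfrsf14, Cd200r1 and Lag3 and below it for Btla and Havcr2. Pdcd1 is at 0.06 FPKM in 1 library and listed at 0 in the others.

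In normal spleen Cd160 (NCBI Gene 54215) stood at 63.8 FPKM with DNAM-1 and 22.7 without it, and the AML values were 61.4 and 24.5. The DNAM-1+ libraries were the high ones in both spleens. Normal spleen thus gave a ratio of 2.81 (95% interval 2.41 to 3.29) and AML spleen 2.51 (2.16 to 2.92). These intervals, here and below, come from about 219 to 650 reads of Cd160 per library on its shortest protein-coding transcript and from the corresponding reads of the other genes, and describe the counting of reads alone, without any spread from mouse to mouse. Among genes reaching 5 FPKM in the higher of the pair of libraries, Cd160 had the 40th highest log2 ratio of 8915 in normal spleen and the 45th of 8839 in AML spleen. A limma fit to all 4 libraries, with the spleen as an additive term, tests the mean difference of both spleens with 1 residual degree of freedom, adjusting p over 9074 genes. In that fit Cd160 rose by 1.37 on the log2(FPKM + 1) scale in DNAM-1+ cells, in 2 of 2 spleens (SE 0.07, limma adjusted p = 8.29e-05).

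Btla (208154) went the other way. In normal spleen its level was 9.27 FPKM with DNAM-1 and 40.3 without it, and the AML values were 8.27 and 36.3. Both DNAM-1- libraries were high, with levels 4.35 times (3.61 to 5.29) and 4.39 times (3.60 to 5.41) those of the DNAM-1+ libraries. In limma Btla fell by 2.01 (SE 0.07, adjusted p = 2.53e-05, lower in 2 of 2 spleens). B cells are known to express BTLA strongly, and the B cell markers moved with it: all 12 were called lower, 11 of them at 5 FPKM or more in both subsets, with ratios of DNAM-1- to DNAM-1+ between 3.31 and 5.49, a range that holds both Btla ratios. Relative to Ms4a1, the gene of CD20, Btla was at 45.9% and 46.5% in the DNAM-1+ libraries of normal and AML spleen and at 45.0% and 43.3% in the DNAM-1- libraries. Relative to Cd79a it was at 12.7% and 9.40% against 10.2% and 9.08%, and relative to Cd22 at 29.6% and 27.8% against 35.8% and 36.9%. These 3 markers were picked after the values were seen. Of all 12, 3 had a ratio above that of Btla in both spleens, 2 below it in both and 7 above it in 1 spleen. The part of these cells in the Btla difference was not tested further.

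For Tnfrsf14 (230979), the gene of HVEM, the normal values were 23.8 FPKM with DNAM-1 and 18.6 without it, and the AML values 21.2 and 19.4. The DNAM-1+ library was slightly higher in each spleen, by 1.28 times (0.906 to 1.83) and 1.09 times (0.758 to 1.54), and both counting intervals include 1. Its mean difference of 0.23 did not pass (SE 0.08, limma adjusted p = 0.113). The 2 receptor genes together thus stood at 73.1 and 69.7 FPKM in the DNAM-1+ libraries of normal and AML spleen and at 63.0 and 60.8 in the DNAM-1- libraries. Their ratio differed far more than their sum: Cd160 was at 6.88 and 7.43 times the level of Btla in DNAM-1+ libraries and at 0.562 and 0.675 times in DNAM-1- libraries, the ones with the higher B cell markers.

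Promoter sequences were available for 6 of the 8 genes and are shown for Cd160, Btla and Havcr2, whose RNA differed between the subsets. Each window is the 250 bases before a RefSeq transcript start in assembly GRCm38.p6, written in the direction of transcription. Capitals mark 3 motifs of 6 letters searched on both strands: GGTGTG, a core recognised by T-box factors such as T-bet and Eomes, TGTGGT, a RUNX site, and GGAAGT, an ETS site. Cd160 has 2 annotated starts. The windows are at chr3:96829352-96829601, minus strand (Cd160 first start), chr3:96814522-96814771, minus strand (Cd160 second start), chr11:46454681-46454930, plus strand (Havcr2), and chr16:45224087-45224336, plus strand (Btla).
Cd160 first start: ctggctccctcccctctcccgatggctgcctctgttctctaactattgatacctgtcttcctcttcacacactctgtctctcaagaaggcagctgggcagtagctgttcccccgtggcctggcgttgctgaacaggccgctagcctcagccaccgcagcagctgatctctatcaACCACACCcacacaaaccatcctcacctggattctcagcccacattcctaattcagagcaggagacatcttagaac
Cd160 second start: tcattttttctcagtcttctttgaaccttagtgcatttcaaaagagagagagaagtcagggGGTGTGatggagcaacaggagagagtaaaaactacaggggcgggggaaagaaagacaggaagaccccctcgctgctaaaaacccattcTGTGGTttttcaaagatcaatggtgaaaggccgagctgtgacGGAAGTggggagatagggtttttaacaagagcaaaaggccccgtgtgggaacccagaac
Havcr2: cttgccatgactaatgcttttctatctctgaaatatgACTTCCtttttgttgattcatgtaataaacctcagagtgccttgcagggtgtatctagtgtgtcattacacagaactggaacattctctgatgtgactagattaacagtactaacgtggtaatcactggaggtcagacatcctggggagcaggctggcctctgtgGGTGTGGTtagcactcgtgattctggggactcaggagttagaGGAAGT
Btla: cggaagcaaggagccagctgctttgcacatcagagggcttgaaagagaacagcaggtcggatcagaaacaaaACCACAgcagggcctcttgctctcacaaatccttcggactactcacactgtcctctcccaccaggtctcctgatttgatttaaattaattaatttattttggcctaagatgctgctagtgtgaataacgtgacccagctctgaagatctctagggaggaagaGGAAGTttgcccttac

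In the window of the first Cd160 start and in that of Havcr2, the T-box core and the RUNX letters share 4 bases and form 1 run of 8 bases, on the strand opposite to the printed one in Cd160, beginning 76 bases before the start, and on the printed coding strand in Havcr2, beginning 48 bases before it. The second Cd160 window holds 1 match to each of the 3 motifs, apart from each other. Btla holds a RUNX match 178 bases and an ETS match 16 bases before the transcript start used here, and Tnfrsf14 an ETS match alone. The windows of Btla and Tnfrsf14 lie within the annotated bounds of these genes. The bases before their outermost starts were thus not searched. Pdcd1 and Ctla4 hold no match in their windows. Of 32841 RefSeq windows of the same length, 16.3% hold the T-box core, 14.0% the RUNX letters, 19.7% the ETS letters, 3.68% both of the first 2 and 0.743% all 3. Cd160 and Havcr2, which hold the T-box core together with the RUNX letters, moved in opposite directions. A match of letters is a description and does not show binding.

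Among the other receptors, Cd200r1 (57781) showed the highest ratio. Its level was 5.31 FPKM with DNAM-1 and 0.61 without it in normal spleen, then 5.43 and 0.35 in AML spleen, so that both DNAM-1- libraries were near the lower end of detection, with about 10 and 6 reads against 93 and 95. The ratios were 8.70 (4.58 to 19.0) and 15.5 (6.71 to 42.3). The limma difference was 2.11 (SE 0.36, adjusted p = 0.0115, higher in 2 of 2 spleens). Cd200r1 entered the test only through the DNAM-1+ libraries, where it is just above the floor of 5 FPKM. Its level in the DNAM-1- libraries thus had to be lower, though not by this much, and this p is a description. With a pseudocount of 5 FPKM its mean difference is 0.92 in place of 2.11. Cd200r1 belongs to a family of close relatives, and reads shared among them make each member's own level uncertain.

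The relatives of Cd200r1 were higher in DNAM-1+ cells too. Cd200r4 rose, from 14.9 to 23.3 FPKM in normal and from 17.7 to 24.1 in AML spleen (limma difference 0.52, SE 0.08, adjusted p = 0.00679). Cd200r2 was higher as well, going from 2.78 to 5.05 and from 2.10 to 5.38 (0.86, SE 0.21, adjusted p = 0.0414), but reached the floor in DNAM-1+ libraries alone. Cd200r3 was at 0.22 and 0.32 FPKM in the DNAM-1+ libraries and listed at 0 in both DNAM-1- libraries. Unlike the inhibitory Cd200r1, these relatives are known to pair with activating adaptors. The ligand gene Cd200, which B cells are known to express, had 0.50 and 0.84 FPKM with DNAM-1 but 3.42 and 3.62 without it, too low to enter the test.

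Most T cell markers were higher in the same libraries as Cd160 and Cd200r1. Of 12 such markers, 9 were above 1 in the DNAM-1+ to DNAM-1- ratio of both spleens, and 5 of the 6 tested were called higher, of which Cd3e and Trat1 reached the floor in DNAM-1+ libraries alone. Cd3e was at 9.22 and 8.95 FPKM in DNAM-1+ against 1.74 and 1.25 in DNAM-1- cells. Cd4 (0.75 to 1.38), Cd5 (0.27 to 1.00) and Cd6 (0.08 to 0.61) were low in every library, and none was at 0. The markers of type 1 innate lymphoid cells, among which Cd200r1 itself is counted, summed to 66.6 and 68.8 FPKM in DNAM-1+ and to 8.11 and 8.82 in DNAM-1- libraries. Most of the DNAM-1+ sums was Il7r, at 38.47 and 38.65 against 2.06 and 2.10 FPKM. The 4 tested ones reached the floor in DNAM-1+ libraries alone. The part of either cell type in the Cd160 and Cd200r1 differences was not tested.

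For Lag3 (16768) the normal values were 8.26 FPKM with DNAM-1 and 5.02 without it, and the AML values 12.8 and 5.14. The library of DNAM-1+ cells from AML spleen was the highest, and the DNAM-1- libraries were both near 5. The ratios between subsets were 1.65 (1.26 to 2.16) and 2.48 (1.94 to 3.20). In limma Lag3 rose by 0.89 (SE 0.15, adjusted p = 0.0115, higher in 2 of 2 spleens), the mean of 0.62 (normal spleen) and 1.17 (AML spleen) on the log2 scale.

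Havcr2 (171285), the gene of TIM-3, had normal values of 1.41 FPKM with DNAM-1 and 7.78 without it, and AML values of 1.92 and 6.46. Both DNAM-1- libraries were high, at 5.52 times (3.80 to 8.30) and 3.36 times (2.39 to 4.81) the DNAM-1+ level. The limma difference was -1.61 (SE 0.22, adjusted p = 0.00531, lower in 2 of 2 spleens), a description as for Cd200r1, because Havcr2 reached 5 FPKM in DNAM-1- libraries alone. With a floor of 1 FPKM, which it passed in all 4 libraries, the adjusted p was 0.00779. With a pseudocount of 5 FPKM the difference is -0.86. Monocytes, macrophages and dendritic cells are known to express TIM-3, and 9 of 11 tested monocyte and macrophage markers were called lower with it, 3 of which reached the floor in DNAM-1- libraries alone. Ccr2 was called higher and Ly6c2 was not called. The markers gave no single reading. Relative to Csf1r, a growth factor receptor gene of monocytes and macrophages, Havcr2 was at 19.3% and 19.5% in the DNAM-1+ libraries of normal and AML spleen and at 13.0% and 11.2% in the DNAM-1- libraries, whereas relative to C1qa, a complement gene of macrophages, it was at 36.3% and 40.4% against 50.0% and 62.9%. Its ratio lay inside the range of the 12 markers, 0.769 to 12.9. Of these markers, 6 had a ratio above that of Havcr2 in both spleens, 4 below it in both and 2 above it in 1 spleen. Csf1r and C1qa were picked after the values were seen. The part of these cells in the Havcr2 difference was not tested further.

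**Figure D2:**
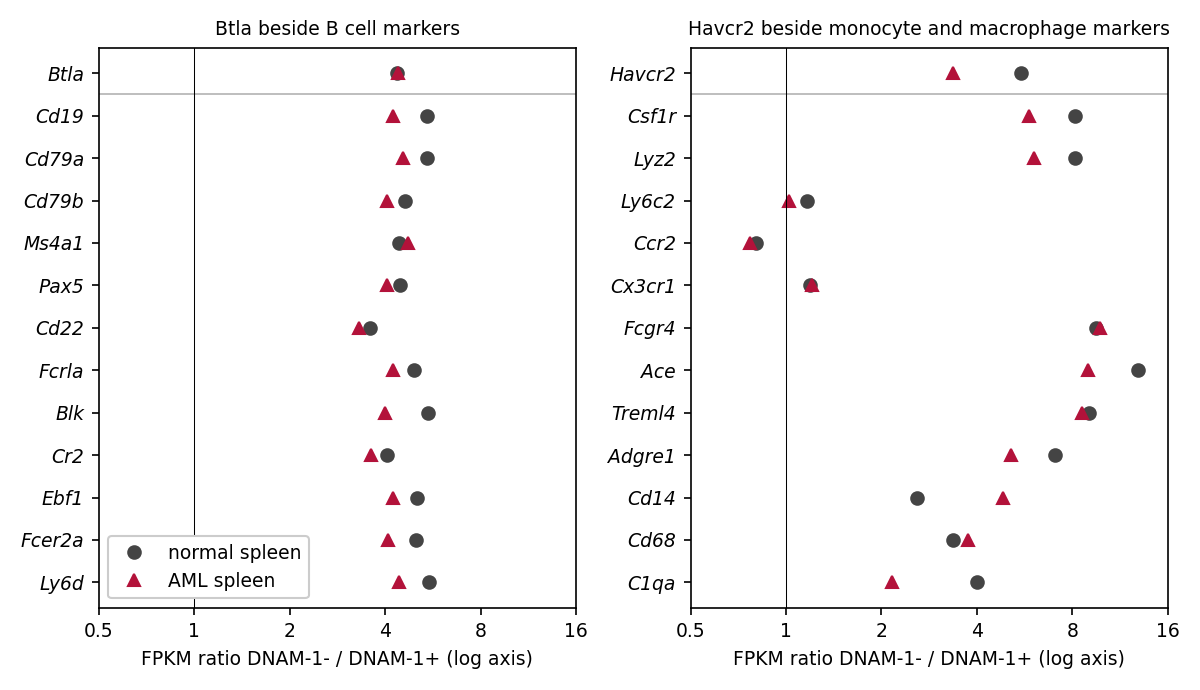
FPKM ratio of DNAM-1- to DNAM-1+ libraries on a log axis, for Btla beside 12 B cell markers (left) and Havcr2 beside 12 monocyte and macrophage markers (right), with grey circles for normal and red triangles for AML spleen. Btla (4.35 and 4.39) lies within the band of B cell markers (3.31 to 5.49), and Havcr2 (5.52 and 3.36) lies among widely spread monocyte markers (0.769 to 12.9).

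Ctla4 (12477) was at 0.30 and 0.36 FPKM in DNAM-1+ and at 0.64 and 0.29 in DNAM-1- libraries of normal and AML spleen, which is about 2 to 3 reads on its shortest protein-coding transcript. Pdcd1 (18566) was at 0.06 FPKM in DNAM-1+ cells of normal spleen, about 1 read, and listed at 0 in the other 3 libraries. A difference in either gene was not detectable at this depth. Foxp3, the defining factor of regulatory T cells, which carry CTLA-4, was at 0.73 to 1.05 FPKM in all 4 libraries. PD-1 protein is not measured here, and 1 read of 1930 bases of transcript is worth 0.0562 FPKM in the DNAM-1+ library of normal spleen.

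Of the 8 genes, Cd160 and Lag3 rose and Btla fell in DNAM-1+ cells by the limma test, and Tnfrsf14 did not pass it. Cd200r1 (higher) and Havcr2 (lower) passed as well, but entered the test only through the subset in which they are high. Ctla4 and Pdcd1 were below the floor. Over all 9074 genes tested, 7.35% rose and 8.38% fell. By the descriptive mark of a 2-fold ratio after adding 1 FPKM, 2 members were higher (background 1.28%) and 2 lower (3.97%) in normal spleen, and 3 higher (0.894%) and 2 lower (3.19%) in AML spleen. The members were chosen with earlier results of these data known, so their counts beside these shares are descriptions alone. The 2 DNAM-1 contrasts share no library. A limma call means that the mean difference of these libraries was large beside its change between spleens, moderated across genes. It does not measure the spread between mice, nor show that the spleens were alike. Without a floor on low values limma calls none of the 17723 genes, and the 5 members then have adjusted p from 0.117 to 0.195.

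**Figure D3:**
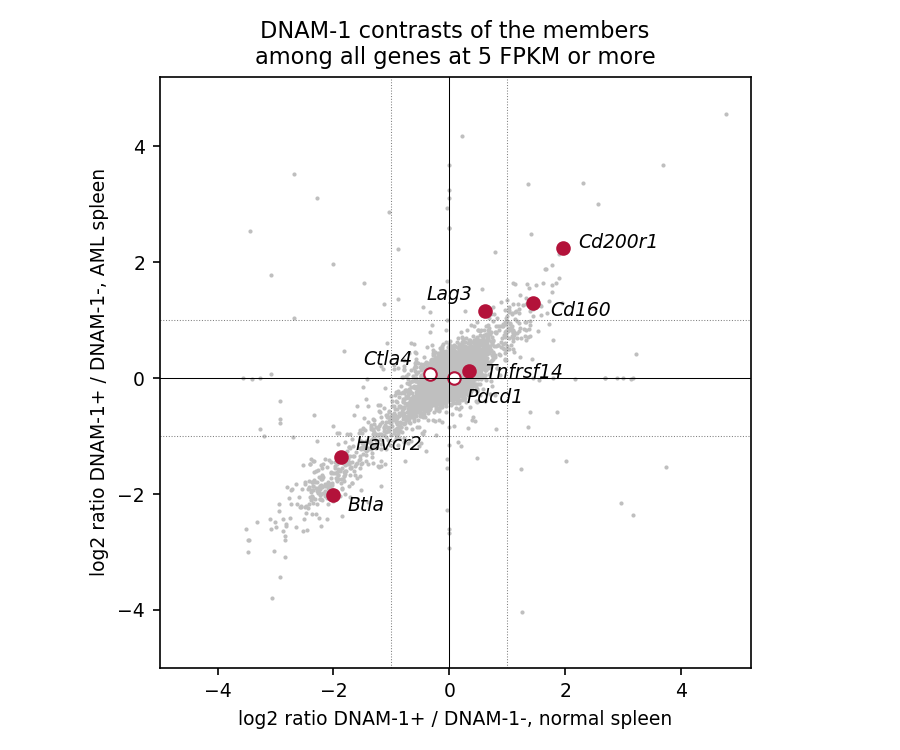
Log2 ratio of DNAM-1+ to DNAM-1- cells, after adding 1 FPKM, in normal spleen (x axis) and AML spleen (y axis) for the 9074 genes of the limma fit (grey), with the 6 members among them as filled and the 2 members below that level as open red circles. Dotted lines mark 2-fold. Cd160 and Cd200r1 lie beyond 2-fold to the upper right, Btla and Havcr2 to the lower left, and Lag3 lies beyond it in AML spleen alone.

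AML spleen was then compared with normal spleen within each subset. Each library also enters 1 of the DNAM-1 contrasts above, so these values are not independent of them. None of the members at 5 FPKM or more differed 2-fold in either subset, where 0.311% of genes were higher and 0.346% lower in DNAM-1+ cells and 0.193% and 0.397% in DNAM-1- cells. Lag3 in DNAM-1+ cells was the one member whose counting interval left out 1. It was at 12.8 against 8.26 FPKM, a ratio of 1.55 (1.25 to 1.90), and the 74th highest log2 ratio of 8682 genes. In DNAM-1- cells Lag3 was at 5.14 against 5.02, a ratio of 1.02 (0.754 to 1.39). Between the same DNAM-1+ libraries, AML against normal, summed markers stood at 428 against 363 FPKM for monocytes and macrophages, 279 against 248 for B cells, 76.3 against 70.6 for plasma cells, 242 against 234 for dendritic cells, 62.1 against 87.3 for neutrophils and 82.9 against 88.1 for T cells. Ly6c2 (188 against 137 FPKM) and Ccr2 (113 against 122) made up most of the monocyte sum. The dendritic cell sum was nearly all Itgax (229 against 226). The part of these cell types in the Lag3 value was not tested.

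Cd160 was nearly level between spleens, with AML to normal ratios of 0.963 (0.862 to 1.08) in DNAM-1+ and 1.08 (0.895 to 1.30) in DNAM-1- cells. Btla had ratios of 0.892 (0.691 to 1.15) and 0.901 (0.796 to 1.02), and Tnfrsf14 of 0.890 (0.636 to 1.24) and 1.05 (0.728 to 1.53). Havcr2 was at a ratio of 1.36 (0.851 to 2.21) in DNAM-1+ and 0.830 (0.660 to 1.04) in DNAM-1- cells. Cd200r1 was at 1.02 (0.759 to 1.37) in DNAM-1+ cells, and its ratio of 0.574 in DNAM-1- cells rests on about 6 against 10 reads (0.177 to 1.80). Outside Lag3 in DNAM-1+ cells, every one of these counting intervals includes 1.

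**Figure D4:**
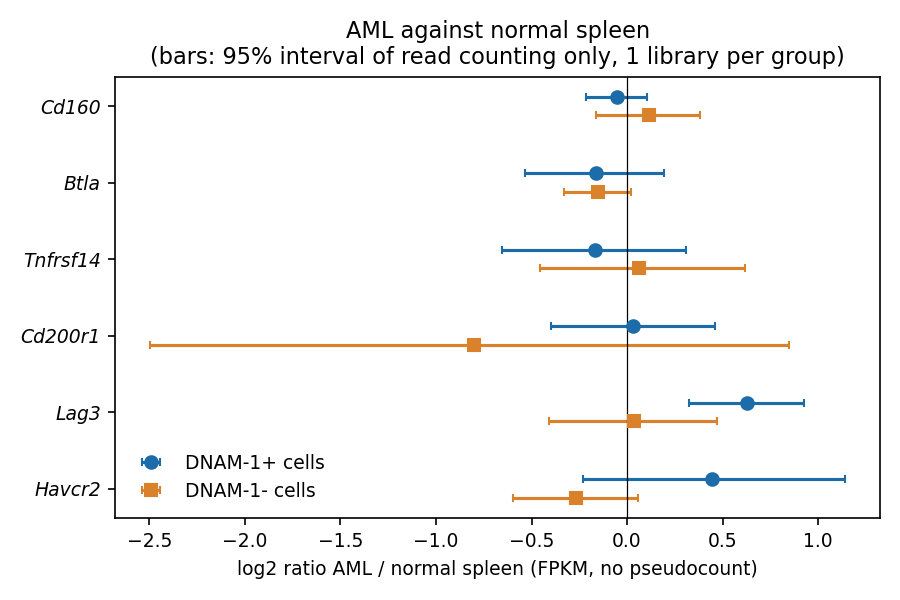
Log2 ratio of AML to normal spleen, from FPKM without a pseudocount, in DNAM-1+ (blue circles) and DNAM-1- cells (orange squares) for the 6 members at 5 FPKM or more. Bars are 95% intervals of read counting alone, with 1 library per group. The bar of Lag3 in DNAM-1+ cells lies above 0 and all others cross it.

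The AML term of the same limma fit called 0 of the 6 members tested, and 0 had an unadjusted p below 0.05. Over all genes it called 0.0661% as higher and 0.287% as lower. Lag3 differed by 0.30 (SE 0.15, limma adjusted p = 0.480) and Btla by -0.15 (SE 0.07, adjusted p = 0.441). The DNAM-1 contrast itself was 0.54 larger in AML than in normal spleen for Lag3 and 0.51 less negative for Havcr2 on the log2 scale, 0.28 larger for Cd200r1, and within 0.23 for Cd160 (-0.16), Tnfrsf14 (-0.22) and Btla (0.00). These changes of the contrast have no test, since the fit with that term leaves no residual.

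Genes whose profile over the 4 libraries was nearest to a member were found by the root mean square difference of mean-centred log2 levels, on the log2(FPKM + 1) scale, among 8505 other named protein-coding genes. For Lag3 the nearest was the chemokine gene Xcl1 (0.08), at 284 and 382 FPKM in DNAM-1+ and 167 and 162 in DNAM-1- cells, followed by Smim27 and Tesc. Cd200r1 was nearest to the T cell receptor complex gene Cd3e (0.05), then Trat1 and Acpp. Cd160 was nearest to Car2 (0.05), which encodes a carbonic anhydrase and was at 136 and 131 against 53.4 FPKM in both DNAM-1- libraries, then to Ckb and Itgb3. Btla was nearest to the lysosomal protease gene Lgmn (0.04), Pilrb1 and Card9, and Havcr2 to Mtss1 (0.03), the Fc receptor gene Fcgrt and Tifa. The flat profile of Tnfrsf14 was nearest to Mettl14, Usp25 and Btbd10, each within 0.02. With 4 points many genes lie close, and the distances describe these libraries alone.

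The ligand genes of these receptors were listed together with Ltb, whose product is a partner of lymphotoxin alpha and not itself counted as a ligand. Among them Cd274 fell, the cytokine genes Tnfsf14 and Ltb rose, and Ceacam1 was far lower in DNAM-1+ cells. Of the 14 genes of this list, 7 were tested, 2 were called higher, Ltb being 1 of them, and 2 lower. The shares over all genes tested were 7.35% and 8.38%. The median log2 ratio of the 7 tested genes came to 0.13 (normal) and -0.13 (AML), beside 0.01 in both spleens over all genes tested. Ceacam1, whose product binds TIM-3, had 1.99 FPKM where DNAM-1- cells had 23.2 in normal spleen, and 2.90 where they had 20.7 in AML spleen (limma difference -2.75, SE 0.15, adjusted p = 9.13e-05), and reached the floor in DNAM-1- libraries alone. Cd274, the gene of PD-L1, fell (11.8 against 19.9 and 12.4 against 15.4, adjusted p = 0.0307). Both stand beside B cell markers and most monocyte markers that were higher in the DNAM-1- libraries, and the part of these cells was not tested.

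Tnfsf14, the gene of the HVEM ligand LIGHT, rose in DNAM-1+ cells, with 24.9 FPKM where DNAM-1- cells had 18.9 in normal spleen, and 28.3 where they had 14.5 in AML spleen (limma difference 0.65, SE 0.13, adjusted p = 0.0193). Ltb, the membrane partner of lymphotoxin alpha, rose too (84.5 against 65.4 and 86.6 against 68.5, adjusted p = 0.0128). Lta was at 2.37 to 3.91 FPKM and was not tested. Hmgb1, a nuclear protein gene and the most abundant of the ligand list, was at 166 and 129 FPKM against 125 and 130, and Lgals9, the gene of galectin-9, at 90.8 and 76.7 against 82.7 and 84.0. The CD80 and CD86 genes reached at most 1.25 and 3.89 FPKM.

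Among 18 related receptors, 11 were tested, 5 were called higher and 3 lower (medians of the tested 0.14 and 0.10), beside 7.35% and 8.38% over all genes. Beside Cd200r2 and Cd200r4, the costimulatory receptor gene Cd28 rose (14.7 against 8.04 and 13.7 against 7.42 FPKM), as did Cd96. Cd28 is also 1 of the 12 T cell markers, whose sum was higher in the same libraries. Icos was higher too (5.60 against 2.12 and 5.81 against 2.17) but reached the floor in DNAM-1+ libraries alone. The inhibitory receptor genes Cd300a (6.03 against 18.7 and 8.06 against 15.7), Lair1 (8.30 against 14.0 and 8.50 against 12.6) and Tigit (24.1 against 30.9 and 19.8 against 27.3) fell. Most B cell and monocyte markers were lower in the same DNAM-1+ libraries, and the part of these cells was not tested. Klrg1, a receptor of mature NK cells and the most abundant of this list, was at 109 and 134 against 98.9 and 131 FPKM and did not pass (limma adjusted p = 0.413), nor did Vsir, the gene of VISTA (0.440).

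Of 18 signalling partners, all tested, 2 rose and 3 fell (medians -0.04 and -0.01), beside 7.35% and 8.38% over all genes, shares near enough that the counts are no result about the list. Ptpn6, the gene of SHP-1, which binds the tail of BTLA, fell from 192 to 111 FPKM in normal and from 190 to 120 in AML spleen (limma difference -0.72, SE 0.06, adjusted p = 0.000875). Ptpn11, the gene of SHP-2, was at 27.2 to 29.7 in all 4 libraries. Dok2, the adaptor through which CD200R signals, rose slightly (181 against 159 and 192 against 157, adjusted p = 0.0487), while Rasa1, the gene of the Ras inhibitor that Dok proteins recruit, did not pass (0.0915). Lck, a kinase gene of T and NK cells and the most abundant of the list, rose (336 against 234 and 336 against 245). Downstream of HVEM, Traf5 (13.5 against 20.9 and 14.0 against 19.0) and Map3k14, the gene of the kinase NIK (21.2 against 26.8 and 19.4 against 28.5), fell, and Traf2 did not pass (adjusted p = 0.655). B cell markers and most monocyte markers were lower in the same DNAM-1+ libraries as these 3 genes that fell, and the part of these cells was not tested.

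Of 14 transcription factor genes linked to checkpoint expression, 13 were tested, 5 were called higher and 2 lower (medians 0.23 and 0.10). Over all genes tested the shares were 7.35% and 8.38%. Tbx21, the gene of T-bet, rose (218 against 169 and 194 against 147 FPKM, limma adjusted p = 0.00792), while Eomes (221 and 212 against 211 and 231) did not pass. Tox, a factor of exhausted T cells that also acts in NK development, rose modestly (21.5 against 17.1 and 21.4 against 15.8, adjusted p = 0.0193), as did Maf, Tcf7 and Id2, the most abundant of the list (425 against 271 and 460 against 318). Nfil3 fell (22.2 against 31.3 and 25.6 against 32.1). Irf4, a factor of activated B cells and plasma cells, was lower (3.33 and 3.83 FPKM with DNAM-1, 13.5 and 12.2 without it) but reached the floor in DNAM-1- libraries alone. Runx3 was at 91.8 to 104 FPKM and did not pass (adjusted p = 0.189).

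**Figure D5:**
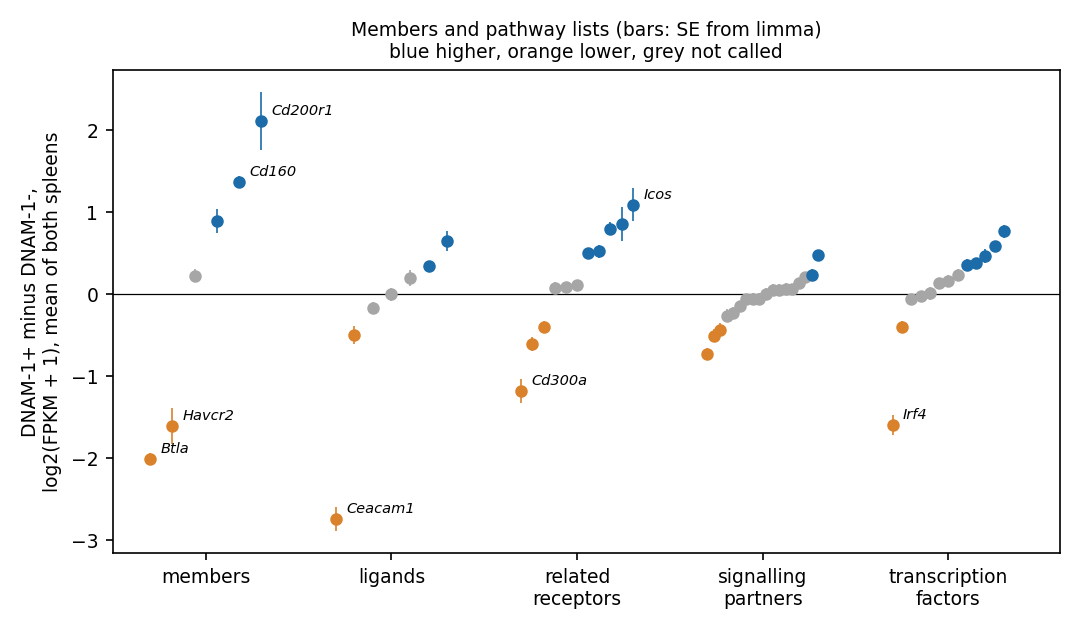
Mean difference of DNAM-1+ minus DNAM-1- cells over both spleens on the log2(FPKM + 1) scale, with SE bars from limma, for the tested genes of 5 lists: members, ligands, related receptors, signalling partners and transcription factors. Blue points are higher and orange points lower at an adjusted p below 0.05, genes that reached the floor in 1 subset alone included, and grey points did not pass. Genes beyond 0.9 either way are named, and Ceacam1 (-2.75) and Cd200r1 (2.11) lie at the ends.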

How the data were processed

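Total RNA of sorted splenic NK cells was sequenced in 4 libraries, 1 per group, on the BGISEQ-500 platform per the labels' protocols. Per the submitters' processing notes Bowtie2 2.2.5 and RSEM were used; their roles, the RSEM version, the genome build and the annotation are not given in the sources used here. The deposited values are FPKM with 2 decimals under NCBI Gene numbers, per the file headers; a gene not listed was taken as 0. Of 17723 gene numbers, 17668 matched a symbol in the RefSeq table of GRCm38.p6.

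Log2 ratios use a pseudocount of 1 FPKM, so they understate differences of low genes; 2-fold was counted among genes that reach 5 FPKM in either library compared. The limma fit (version 3.58.1 in R 4.3.3, mean variance trend on) took log2(FPKM + 1) of 9074 genes reaching 5 FPKM somewhere, with additive subset and spleen terms and two-sided tests. Calls need a Benjamini-Hochberg p under 0.05. Its 1 residual degree of freedom is the interaction, moderated across genes, so p-values do not measure the spread between mice. The fit was also run on simulated read counts that held neither an interaction nor a spread between mice. That run does not show that the p-values hold for these libraries. Depth was fitted on microRNA genes (55 to 100 nt), where 91.9% to 95.6% of the values used were whole reads to within 0.1. Reads per gene use the shortest GENCODE M21 protein-coding transcript; 95% intervals of ratios are exact binomial (Clopper-Pearson, scipy 1.17.1). Members and lists were chosen with earlier results of these data known. All 8 members are named, as are list genes called for the subset, each list's most abundant gene and the 3 nearest profiles of each member at 5 FPKM or more; Rasa1, Runx3, Ptpn11, Traf2, Eomes, Vsir, Lgals9 and low ligand genes were added after their values were seen. Other pseudocounts, floors, scalings and terms were tried as alternatives.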

Additional observations from a re-analysis of the deposited data

How the results depend on the processing

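The member calls depended on the floor on low values. Without a floor limma called 0 members and 0 of all genes for the subset, and with a floor of 20 FPKM it called the 2 members left above it besides Tnfrsf14; under the other 7 alternatives it called the same number, 5, and all kept their direction. Called genes over the whole table numbered 1427, against 882 without the trend (36.4% of them higher, against 46.7%) and 878 without the additive term. For AML, 32 genes were called, against 9 with a floor of 1 FPKM, 69 with 20 FPKM, 0 without a floor, 5 without the trend, 91 with median scaling, 107 among protein-coding genes alone and 0 without the additive term, and no member in any. With a pseudocount of 5 FPKM, 2 members in place of 4 were past 2-fold in normal spleen and 2 in place of 5 in AML spleen, as Havcr2, Cd200r1 and Lag3 dropped under it. Genes past 2-fold over the whole table, in normal spleen, AML spleen, DNAM-1+ and DNAM-1- cells, numbered 468, 361, 57 and 52. With a pseudocount of 5 FPKM they were 286, 201, 36 and 29, with a floor of 1 FPKM 811, 614, 210 and 192, and at 1.5-fold 832, 651, 186 and 148. The direction of these shifts in 2-fold counts follows from the settings. A larger pseudocount shrinks ratios, most of all those of low genes. A lower floor admits more genes, and 1.5-fold is a looser mark. The cause of the shifts in limma calls was not tested. No paired analysis was possible because the labels give no replicate number or mouse, beyond the additive spleen term already in the fit. Depth limits Cd200r1 in DNAM-1- cells, Ctla4 and Pdcd1, each at 10 reads or fewer.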
